A study of Mus musculus with 12 samples.

Results

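Brain miRNAs known from synaptic plasticity were followed through the miRNA-Seq data of mouse frontal cortex (FCx) and hippocampus (HP). They are mmu-miR-132, mmu-miR-212, mmu-miR-137, mmu-miR-138 and mmu-miR-384-5p, written below without the species prefix. They were taken by name from the deposited miRNA counts, without their star forms, and are 5 of the 469 miRNAs listed in any library and 5 of the 431 that were tested. All mice were male C57BL/6J animals, with no treatment named, that arrived at 7 weeks of age, were housed singly and were dissected at 8 weeks. FCx was cortical tissue cut from a brain slice and HP was the whole hippocampus. The labels place the slice between Bregma -1.5 and -3.5, which lies behind the frontal cortex by the usual sign convention, so FCx is used here only as the name that the labels give. Tissue of 3 mice was pooled by region before RNA extraction, and the study's description reads as if the same mice gave both regions. The RNA of each pool was made into 3 libraries, which carry different indexes of 6 nt between the 5′ adaptor and the ligated small RNA (UUAGGC for index 3, CAGAUC for index 7 and GGCUAC for index 11). Each library was sequenced alone and again in a lane shared by the region's libraries (pooled run), and the counts of both runs were summed here. The 3 libraries of a region are therefore technical replicates of 1 RNA pool, so p-values measure technical spread that includes the index, and a difference between FCx and HP is a difference between 2 pools. Within bulk tissue, fewer cells that carry a miRNA and less of the miRNA per cell cannot be told apart.

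MiRNAs pair through bases 2 to 8 of their 5′ end, the seed, with messenger RNAs and lower the protein made from them. In neurons, part of this repression takes place in dendrites and changes with synaptic activity. miR-132 and miR-212 are cut from neighbouring hairpins that the activity-dependent factor CREB induces, and miR-132 is known to promote dendrite growth and to act on spines. miR-137 acts on neuronal maturation and dendrites, and its gene lies in a schizophrenia risk locus. miR-138 is enriched at synapses, where it restrains the size of dendritic spines through the depalmitoylating enzyme Lypla1. miR-384-5p has been linked to the maintenance of long-term potentiation in the hippocampus, and its seed is that of the miR-30 family.

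The mature sequences are shown because seed and 5′ end separate the 5 miRNAs into 4 seed groups and because the 5′ end is the base to which the indexed adaptor is joined. All 5 were matched in RefSeq, read 5′ to 3′, with the seed in capitals and positions on NCBIM37, the build of the deposited alignments.
miR-132-3p: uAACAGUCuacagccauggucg
miR-212-3p: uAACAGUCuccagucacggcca
miR-137-3p: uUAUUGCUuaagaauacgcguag
miR-138-5p: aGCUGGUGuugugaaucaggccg
miR-384-5p: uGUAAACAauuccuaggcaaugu
miR-132 and miR-212 share the seed AACAGUC and their first 9 bases. They differ at 5 of 22 positions, counted from 1 at the 5′ end with the base of miR-132 first: A10C, C14U, U17C, U20C and G22A. Only 2 of these lie in the first 16 bases. The authors' alignment allowed 2 mismatches, so a strongly shortened read of one could be counted for the other. Among the listed miRNAs matched in RefSeq, the seed GUAAACA of miR-384-5p was also found in miR-30a, miR-30c and miR-30e, and the listed miR-30b and miR-30d belong to the same family. No other listed miRNA matched in RefSeq had the seed UAUUGCU of miR-137 or GCUGGUG of miR-138.

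In the GENCODE annotation, Mir212 (chr11:74986890-74986980) and Mir132 (chr11:74987167-74987267) lie on the plus strand inside the lincRNA 1700016P03Rik, outside its exons. Their 3p arms, miR-212-3p at chr11:74986945-74986966 and miR-132-3p at chr11:74987225-74987246, begin 280 bases apart. Mir137 (chr3:118136761-118136862, plus strand) lies in no annotated gene, and miR-137-3p occupies chr3:118136819-118136841. miR-138-5p has the same sequence at 2 intergenic loci on the plus strand, Mir138-1 with the mature arm at chr9:122592016-122592038 and Mir138-2 with the arm at chr8:96848212-96848234. Because the loci share the mature sequence, reads of miR-138 cannot be assigned to one of them. Mir138-2 is 4811 bases from Slc12a3, its nearest coding gene. Mir384 lies on the minus strand of the X chromosome (chrX:102539621-102539708), outside any annotated gene, with miR-384-5p at chrX:102539671-102539693.

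Depth differed between the regions. The summed libraries of indexes 3, 7 and 11 held 391410, 1461732 and 652449 miRNA counts in FCx and 3206221, 4956117 and 4053518 in HP, so low FCx values rest on few reads. Levels are given as CPM, counts per 1000000 miRNA counts of the library. Since the mature forms are 22 or 23 nt long, CPM can be compared between the 5 miRNAs without a correction for length. Reads carry no molecular identifiers, and the intervals given cover counting error only.

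The level of miR-132 in FCx was 16806, 731 and 22160 CPM for indexes 3, 7 and 11. In HP it was 3712, 252 and 6502 CPM. Index 7 was the lowest library of both regions and index 11 the highest, and the ranges of FCx and HP overlapped. The FCx mean was 13232 ± 11152 CPM and the HP mean 3488 ± 3131 CPM (SD, n = 3 libraries), and the place of miR-132 among all miRNAs of a library ran from 8 to 92.

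miR-212, the neighbour of miR-132 with the same seed, was read at much lower levels, with 432, 158 and 740 CPM in FCx. HP had 117, 112 and 179 CPM. Again index 11 was highest and index 7 lowest in both regions, and the FCx library of index 7 lay between the HP libraries of the other indexes. The FCx mean was 443 ± 291 CPM and the HP mean 136 ± 37.2 CPM (SD, n = 3 libraries).

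miR-137 reached 31458 CPM in the FCx library of index 3 but only 26.7 CPM with index 7 and 61.3 CPM with index 11. HP showed the same order with 50060, 39.3 and 137 CPM. The same RNA pool thus placed miR-137 among the most read miRNAs with index 3, at place 6 in HP, and at place 166 with index 7. In counts, 160502 reads of the HP library of index 3 stand against 195 with index 7 and 557 with index 11. The SD exceeded the mean in both regions (FCx 10515 ± 18137 CPM, HP 16745 ± 28851 CPM, n = 3 libraries).

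miR-138 was the most even of the 5 in FCx, with 718, 958 and 837 CPM. In HP it was 619 and 827 CPM with indexes 3 and 11 and 2161 CPM with index 7. Index 7, the lowest library for the other 4 miRNAs, was the highest for miR-138 in both regions. All 3 FCx values lay within the HP range, and the FCx mean was 838 ± 120 CPM and the HP mean 1203 ± 836 CPM (SD, n = 3 libraries).

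miR-384-5p was the rarest in FCx, with 322, 7.53 and 42.9 CPM, from 126, 11 and 28 counts. HP had 434, 13.5 and 68.3 CPM, from 1391, 67 and 277 counts. Index 3 was highest and index 7 lowest in both regions, and the regions overlapped. For the FCx library of index 7 the 95% Wilson interval was 4.20 to 13.5 CPM.

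**Figure D1:**
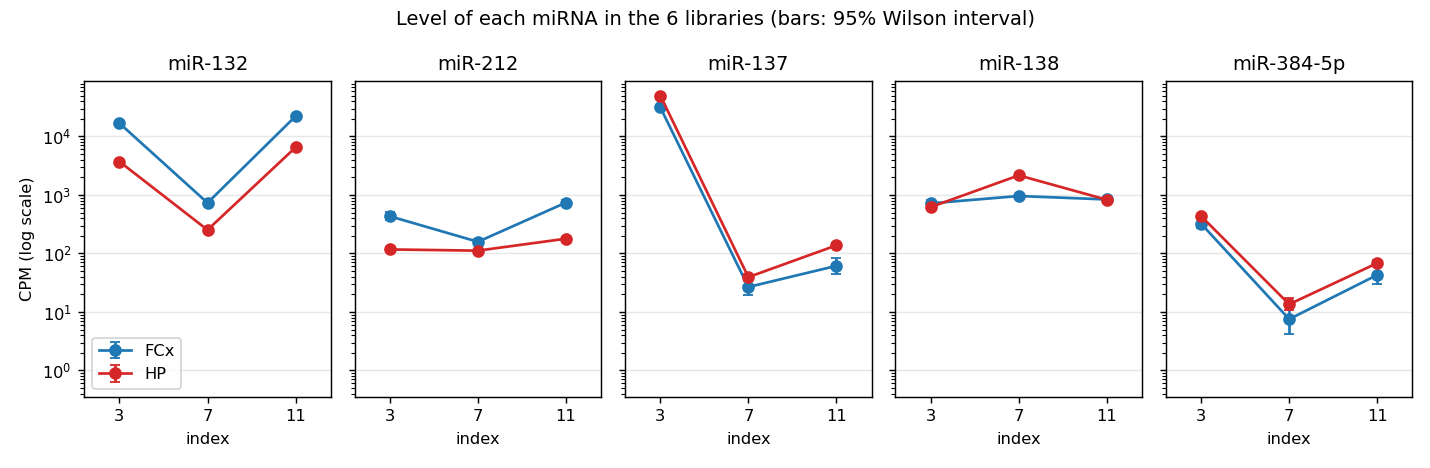
Level of the 5 miRNAs in CPM on a log scale, by index, for FCx (blue) and HP (red), with points for single libraries, bars for the 95% Wilson interval of the counts and lines that join the libraries of a region. The lines of FCx and HP run in parallel for miR-132, miR-137 and miR-384-5p, and miR-137 falls from 31458 and 50060 CPM with index 3 to 137 CPM or less with the other indexes.

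The order of the 5 miRNAs by level therefore depended on the index more than on the region. With index 3 it was miR-137, miR-132 and miR-138 in both regions, followed by miR-212 and miR-384-5p in FCx and by miR-384-5p and miR-212 in HP. Index 7 gave miR-138, miR-132, miR-212, miR-137 and miR-384-5p in both regions. With index 11 the order was miR-132, miR-138, miR-212, miR-137 and miR-384-5p in both. By the mean over the indexes, miR-132 was first and miR-137 second in FCx and the reverse in HP. All neighbours in the order by mean overlapped in range, except miR-138 (619 CPM and above) and miR-384-5p (434 CPM and below) in HP.

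To compare the size of the index effect with that of the region, the highest index was divided by the lowest within each region. This range was 1179-fold for miR-137 in FCx (1272-fold in HP), 42.8-fold (32.1-fold) for miR-384-5p and 30.3-fold (25.8-fold) for miR-132. For miR-212 it was 4.68-fold (1.60-fold) and for miR-138 1.34-fold (3.49-fold). Among the 139 miRNAs that averaged 100 CPM or more over the libraries, miR-137 had the largest range in both regions, miR-384-5p was at place 7 in FCx and 6 in HP, and miR-132 at 10 and 9. The seed mates miR-132 and miR-212 stood far apart, since miR-212 was at place 63 in FCx and 124 in HP. miR-138 was at place 130 and 78.

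The index changed all 5 miRNAs by edgeR's quasi-likelihood test with the region in the model (adjusted p = 3.71e-89 for miR-137, 1.19e-30 for miR-384-5p, 8.88e-26 for miR-132, 9.71e-06 for miR-212 and 5.36e-04 for miR-138). Of the 431 miRNAs tested, 61.3% passed this test, the share against which 5 of 5 is to be read. The call of miR-212 was lost when only the pooled runs were used (adjusted p = 0.0702). The size of these p-values depended on the settings. For miR-137 the edgeR adjusted p was 2.70e-166 with library totals and 6.94e-12 when at least 10 counts in FCx or in HP were required. For miR-132 it was 1.34e-42 and 2.15e-08. The median range over the 294 miRNAs above 0 in every library was 4.66-fold in FCx and 4.33-fold in HP, and 43.2% of them had at least a 4-fold range in both regions, which 3 of the 5 miRNAs had. FCx and HP agreed in the index that was highest for 5 of 5 miRNAs, against 75.5% of the 294. The pooled run of a library differed from the individual run by -0.51 to 0.85 on the log2 scale, with the largest difference for miR-132 in the HP library of index 3.

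**Figure D2:**
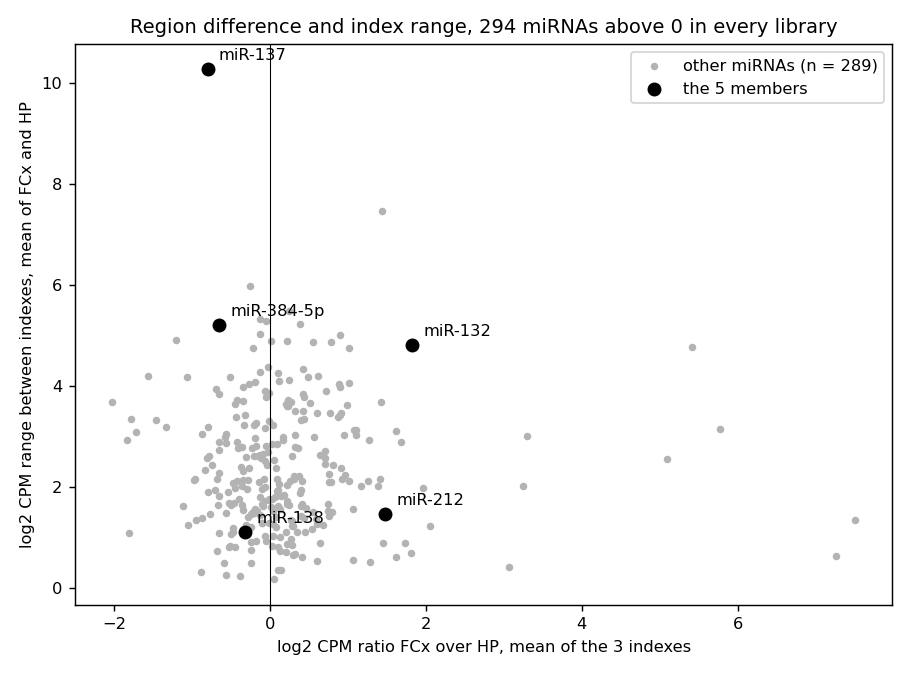
The log2 range of CPM between indexes (vertical axis, mean of FCx and HP) against the log2 ratio of FCx over HP (horizontal axis, mean of the 3 indexes) for the 294 miRNAs above 0 in every library, with the 5 miRNAs in black. miR-137 stands above all others on the vertical axis, and miR-132 is among the few that are high on it and also to the right.

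Because the spread between indexes was this large, FCx and HP were compared within each index. For miR-132 the level was 4.53-fold higher in FCx with index 3, 2.90-fold with index 7 and 3.41-fold with index 11. Among these ratios, even the lowest had a 95% interval of 2.67 to 3.15, so that each was far from 1 by counting error. For miR-212 the ratio was 3.69, 1.42 and 4.14, with an interval of 1.21 to 1.65 for index 7. The paired genes of this cluster were thus both higher in FCx with every index, and index 7 gave the smallest ratio for both.

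miR-137 was lower in FCx with every index, with FCx over HP ratios of 0.628, 0.678 and 0.446. For miR-384-5p they were 0.742, 0.557 and 0.628, but the 95% interval for index 7 was 0.265 to 1.06 and included 1. miR-138 had no common direction, with 1.16, 0.444 and 1.01. The ratio of miR-138 was below 1 with index 7 only, and that of index 11 did not differ from 1 by counting error (interval 0.922 to 1.11). By CPM, 26.2% of the 294 miRNAs above 0 in every library were higher in FCx with all 3 indexes and 18.4% were lower with all 3, so that such a common direction, found for 2 and 2 of the 5 miRNAs, is frequent.

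Across the libraries without regard to the index, no member separated the regions. FCx and HP overlapped for all 5, while 9.05% of the 431 miRNAs had regions that did not overlap. edgeR's quasi-likelihood test without a block gave log2 fold changes (FCx over HP) of 1.21 ± 1.23 (SE) for miR-132, 1.18 ± 0.82 for miR-212, -1.43 ± 2.34 for miR-137, -0.81 ± 0.74 for miR-138 and -1.20 ± 1.33 for miR-384-5p, all with an adjusted p of 0.992. This test called 2 of the 431 miRNAs (0.464%), miR-183 and miR-200c, which are named here after their values were seen.

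The index pairs the libraries, and with the index as a block the same test called 4 of the 5. miR-132 was higher in FCx by 1.41 ± 0.31 on the log2 scale (adjusted p = 1.02e-04) and miR-212 by 1.06 ± 0.28 (adjusted p = 0.00233). With the block, 5.1% of the 431 miRNAs were called higher in FCx. miR-137 was lower in FCx, with a log2 fold change of -1.24 ± 0.33 (adjusted p = 0.00263), and so was miR-384-5p with -1.12 ± 0.31 (adjusted p = 0.00317), where 12.8% of all miRNAs were called higher in HP. miR-138 did not pass (-0.74 ± 0.29, adjusted p = 0.0569).

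These blocked values depend on the scaling. TMM normalization moved the median log2 fold change of all 431 miRNAs to -0.38, against -0.01 with library totals. Relative to the median, the blocked change was 1.79 for miR-132, 1.45 for miR-212, -0.86 for miR-137, -0.74 for miR-384-5p and -0.35 for miR-138. With library totals 8.35% of all miRNAs were called towards FCx and 4.64% towards HP, and miR-132 (1.83, edgeR adjusted p = 2.06e-13), miR-212 (1.49, adjusted p = 6.22e-05) and miR-137 (-0.79, adjusted p = 0.00438) were called. miR-384-5p lost its call with library totals (-0.62, adjusted p = 0.26). The blocked value of miR-138, -0.74 with TMM and all indexes, was -0.31 with library totals and -0.28 without index 7. Without index 3 in both regions no member passed the blocked test (edgeR adjusted p = 0.0676 for miR-132, 0.104 for miR-212, 0.0631 for miR-137 and 0.0918 for miR-384-5p). The log2 fold changes were about as large as with it, at 1.42, 1.04, -1.11 and -1.06, and this fit holds 4 libraries. miR-137 also lost its call without index 11, where its log2 fold change was -0.64 (edgeR adjusted p = 0.401) against -1.24 with all indexes. miR-384-5p lost its call without index 7 (-0.91, adjusted p = 0.0767) or index 11 (-0.66, adjusted p = 0.274), against -1.12 with all, whereas miR-132 and miR-212 kept theirs without index 7 or index 11.

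**Figure D3:**
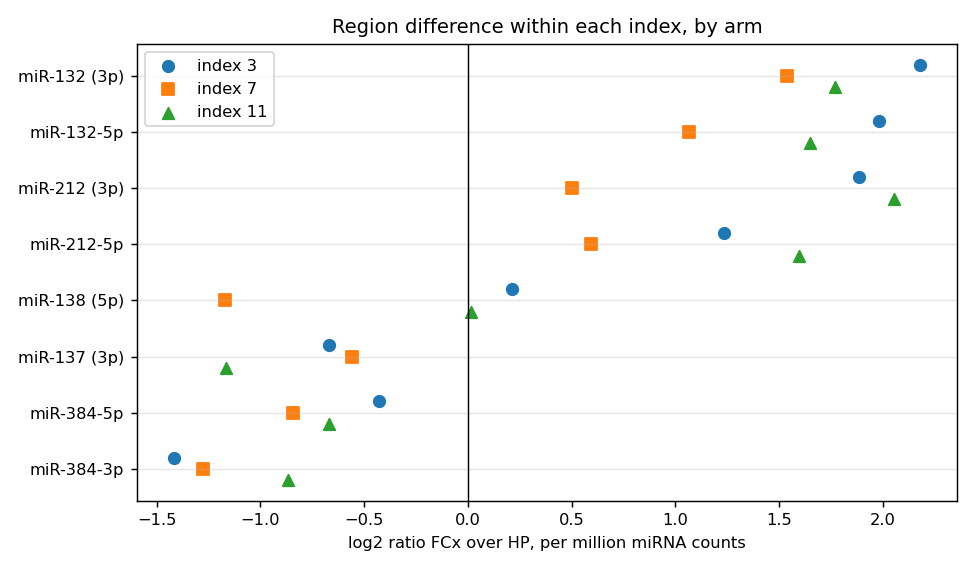
Log2 ratio of FCx over HP within each index (circle, index 3; square, index 7; triangle, index 11), per 1000000 miRNA counts, for the listed miRNAs and for the other arms of Mir132, Mir212 and Mir384 counted in the genome alignments. Both arms of Mir132 and Mir212 lie to the right of 0 with every index, both arms of Mir384 lie to the left, and miR-138 lies on both sides.

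Markers of other cells moved with the region. All 8 of 8 epithelial and olfactory bulb miRNAs (miR-200a, miR-200b, miR-200c, miR-141, miR-429, miR-182, miR-183 and miR-96) were called higher in FCx with the block, also with library totals. Of all 431 miRNAs, 5.1% were called higher in FCx with the block and 8.35% with library totals. The summed level of the 8 was 2540, 5702 and 1478 CPM in FCx and 66.1, 134 and 24.7 CPM in HP for indexes 3, 7 and 11. The most abundant was miR-200a, with a mean of 1358 CPM in FCx (25.6 CPM in HP), and 1 of the 8 was at 0 in HP. Both miRNAs called without a block belong to this list.

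Neuronal miRNAs (miR-124, miR-9 and miR-128) summed to 241123, 271724 and 241250 CPM in FCx, and in HP to 103071, 167715 and 148217 CPM, and no marker of the list was at 0 in either region. With the block 1 of the 3 was called, miR-9, which was called higher in HP, as were 12.8% of all miRNAs. miR-128 was the most abundant, with a mean of 193829 CPM in FCx (81735 CPM in HP). With library totals miR-9 lost its call (edgeR adjusted p = 0.0736), and miR-124 and miR-128 were called higher in FCx, as were 8.35% of all miRNAs. The regions did not overlap in the neuronal sum, where 9.05% of the 431 single miRNAs did not overlap. Most of this sum was miR-128, with mean sums of 251365 CPM in FCx and 139668 CPM in HP. By CPM, miR-124 and miR-128 were higher in FCx with every index and miR-9 was lower with every index. The part of the neuronal miRNAs in the results on miR-132 and miR-212 was not tested.

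Of the 6 choroid plexus and ependymal markers (miR-34b-3p, miR-34b-5p, miR-34c, miR-449a, miR-204 and miR-211), 4 were called higher in HP, where 12.8% of all miRNAs were, and with library totals 2 were, where 4.64% of all were. They had sums of 102, 66.4 and 56.7 CPM in FCx and 269, 276 and 108 CPM in HP and miR-34c as the most abundant. The oligodendrocyte markers miR-219 and miR-338-3p summed to 1597, 1017 and 529 CPM in FCx and 1875, 2307 and 406 CPM in HP, with 1 of 2 called higher in HP. This was miR-219, the more abundant, which was higher in FCx with index 11 and lost its call with library totals (edgeR adjusted p = 0.185). The endothelial pair miR-126-3p and miR-126-5p had 79.2, 74.6 and 113 CPM against 140, 89.6 and 150 CPM, with miR-126-5p as the more abundant and 1 of 2 called higher in HP (0 of 2 with library totals). No marker of red blood cells, white blood cells and microglia, muscle or liver was called with the block. With library totals 1 of the 3 red blood cell markers was called higher in FCx, as were 8.35% of all miRNAs. The part of these cells in the region differences of the 5 miRNAs was not tested.

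The count tables list only 1 arm of Mir132, Mir212 and Mir137. The genome alignments also hold the other arms, which come from the same hairpins but have other 5′ ends, and so another base at the adaptor junction. Both arms were counted in them by reads of at least 14 nt that begin within 4 nt of the annotated start. These counts were chosen after the count tables had been seen. For the listed arms, they recovered 98.9% of the counts of miR-132, 99.4% of miR-212, 96.0% of miR-138 and 97.7% of miR-384-5p, but 58.1% of those of miR-137, a gap whose cause was not tested.
miR-132-5p: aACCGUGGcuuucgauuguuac
miR-212-5p: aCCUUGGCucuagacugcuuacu
miR-384-3p: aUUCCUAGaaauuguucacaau
These 3 arms begin with A, as does the listed miR-138-5p, while miR-132-3p, miR-212-3p, miR-137-3p and miR-384-5p begin with U.

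miR-132-5p was read at 4382, 616 and 4557 per 1000000 miRNA counts in FCx for indexes 3, 7 and 11. In HP it was at 1112, 295 and 1454. Index 7 was again the lowest library, but the range between indexes was 7.40-fold in FCx and 4.94-fold in HP and so smaller than that of miR-132 itself. The FCx over HP ratio was 3.94, 2.09 and 3.13, in the direction of the 3p arm with every index.

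miR-212-5p was at 284, 226 and 156 per 1000000 in FCx and at 120, 150 and 51.8 in HP. Its order of the indexes was not that of miR-212-3p, since index 11, the highest for the 3p arm, was the lowest for the 5p arm in both regions. FCx over HP was 2.36, 1.51 and 3.02. The lowest FCx library (156, index 11, 102 reads) stood just above the highest HP library (150, index 7, 744 reads). So small a gap between different indexes is not read as a separation of the regions. In the count tables, 9.05% of the 431 miRNAs had regions that did not overlap.

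miR-384-3p, which is listed in the count tables, was aligned at 105, 3.42 and 44.4 per 1000000 in FCx and at 279, 8.27 and 81.2 in HP. It was lower in FCx with every index (ratios of 0.375, 0.413 and 0.548), as was the 5p arm. Its order of the indexes was that of the 5p arm, with a range of 30.6-fold in FCx and 33.8-fold in HP. Only 5 reads carried miR-384-3p in the FCx library of index 7. miR-137-5p had 122 reads in all 6 libraries together, of which 22 and 81 were from the FCx and HP libraries of index 7. The star form miR-138* had 2, 3 and 5 counts in FCx and 3, 11 and 19 in HP.

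edgeR's quasi-likelihood test was fitted in the same way to the 415 arms counted in the alignments. With the index as a block, 5.54% of them were called in the direction of FCx, and 11.1% in that of HP. miR-132-5p was called higher in FCx (log2 fold change 1.10 ± 0.28, adjusted p = 0.00151) and miR-384-3p higher in HP (-1.79 ± 0.34, adjusted p = 3.84e-06), while miR-212-5p did not pass (0.68 ± 0.28, adjusted p = 0.0707). miR-138-5p, which missed the threshold in the count tables, passed here (-0.78 ± 0.28, adjusted p = 0.032), although its direction was not shared by the 3 indexes. Without the block none of these arms was called by edgeR (adjusted p = 0.997 for each).

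The share of the 2 arms of a hairpin also changed with the index. Of the reads of Mir132, 79.2%, 53.4% and 82.8% were on the 3p arm with indexes 3, 7 and 11 in FCx. In HP these shares were 76.8%, 45.1% and 81.6%. The 3p arm thus prevailed with indexes 3 and 11, and with index 7 the arms were near balance, with the 5p arm ahead in HP (95% Wilson interval of the 3p share 43.2% to 47.0%). For Mir212 FCx had 3p shares of 60.4%, 41.0% and 82.4% and HP had 49.3%, 42.4% and 77.4%, so that the arm with more reads changed with the index in both regions.

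The 3p share of Mir137 was over 99.9% with index 3 and 96.0% or more with index 11. With index 7 it was 55.1% in FCx and 57.4% in HP, on 49 and 190 reads. For Mir384, FCx had 5p shares of 74.8%, 66.7% and 46.3% and HP had 60.3%, 61.7% and 45.3%. The ratio of the arms ranged over the indexes 4.18-fold in FCx and 5.40-fold in HP for Mir132, 6.76-fold and 4.67-fold for Mir212, and 2869-fold and 5784-fold for Mir137, whose 5p arm had only 2 reads in FCx and 12 in HP with index 3, so that this range is imprecise. Over the 60 hairpins with both arms read and at least 20 reads in every library, the median range was 7.15-fold in FCx and 5.74-fold in HP, and 15.0% changed their leading arm in both regions, as Mir212 did. Mir384, with under 20 reads in the FCx library of index 7, was not among the 60, and its leading arm changed in both regions as well. Mir132 and Mir212 were thus below the median in both regions, and Mir137 was far above it.

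**Figure D4:**
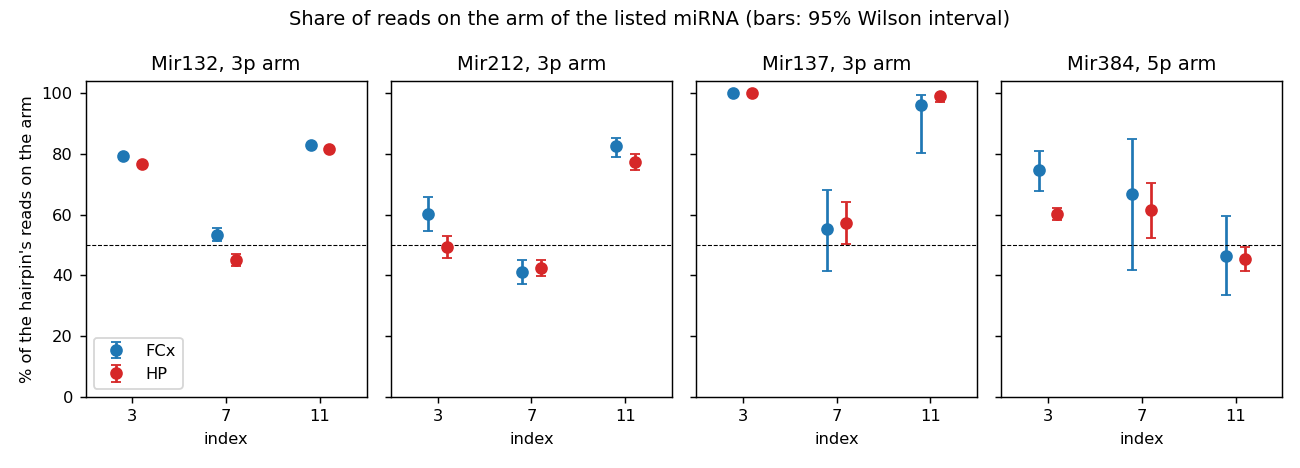
Percentage of the reads of each hairpin that lie on the arm of the listed miRNA, by index, in FCx (blue) and HP (red), with bars for the 95% Wilson interval and a dashed line at equal shares. Index 7 has the lowest share for Mir132, Mir212 and Mir137 in both regions, whereas Mir384 is lowest with index 11.

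To see whether the regions differ in the 5′ ends of the reads, and so in the seed, the reads that begin at the annotated start were counted. The lengths in the alignment files were not used for 3′ ends, because 83.6% of all alignments are exactly 22 nt long and only 2.57% are 18 to 21 nt long. That share differed with the index, at 16.2% and 12.8% in the FCx runs of index 11, 4.14% and 3.17% in the HP runs of index 11, and 0.607% or less in all runs of indexes 3 and 7. Alignments under 14 nt made up 5.09%, and up to 25.8% in a single run, although the authors' methods name their removal. They were left out here. In FCx and HP, 92.2% ± 3.89 and 92.8% ± 3.73 of the reads of miR-132-3p began at the annotated start (SD, n = 3 libraries; exact permutation test, two-sided, p = 0.5). The means were 98.6% and 97.9% for miR-212-3p, 84.8% and 82.5% for miR-137-3p, 97.6% and 97.6% for miR-138-5p, and 94.5% and 96.2% for miR-384-5p (exact permutation test, p from 0.4 to 1). FCx and HP overlapped for all 5, and 3 libraries against 3 cannot give a p under 0.1. Within the indexes 3, 7 and 11, FCx minus HP was -0.602, -0.794 and -0.454 percentage points for miR-132-3p and 0.0916, 0.914 and 0.962 for miR-212-3p, whereas the sign changed between indexes for the other 3 (exact sign-flip permutation test over 3 pairs, two-sided, chosen after seeing the data, p = 0.25 for both, the smallest that it can give). The shared sign of each was lost under other choices of reads. With reads of 18 to 26 nt only, miR-132-3p had 91.9% in FCx and 91.6% in HP with index 7, and the means were 94.7% and 94.7%. miR-212-3p had 98.2% in FCx and 99.5% in HP with index 3 in the individual runs, and 95.1% and 95.5% with index 11 in the pooled runs. The difference in means for miR-137-3p was 2.26 percentage points, against 4.30 in the individual runs and -4.22 in the pooled runs, so its direction depended on the runs. The same held for miR-384-5p (0.46 in the individual and -3.21 in the pooled runs) and miR-138-5p (0.55 and -1.03). For miR-132-3p index 7 was lowest in both regions, with 87.7% in FCx and 88.5% in HP against 94.4% or more in the other libraries.

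The annotated start held for miR-212-5p but not for miR-132-5p, and for miR-384-3p only in part. Only 24.3% ± 0.82 of the reads of miR-132-5p in FCx (SD, n = 3 libraries) began at the annotated start, with 22.1% to 23.6% in HP, and 75.0% to 77.5% in every library began 1 base after it. FCx was above HP with each index, by 1.27, 1.28 and 1.31 percentage points (exact sign-flip permutation test over 3 pairs, p = 0.25, the smallest that it can give), but in the pooled runs alone FCx was below HP (23.7%) with index 11. Most miR-132-5p reads therefore had a seed shifted by 1 base from the one in capitals above. miR-212-5p began at its annotated start in 97.3% of the reads in FCx and 95.2% in HP. With each index FCx was higher, by 3.90, 0.137 and 2.27 percentage points (exact sign-flip permutation test over 3 pairs, p = 0.25). The sign was kept with each index in the individual and in the pooled runs. In the pooled runs the regions did not overlap (exact permutation test, p = 0.1, the smallest that it can give). For miR-384-3p, FCx had shares of 58.5%, 80.0% and 72.4% and HP had 45.9%, 92.7% and 74.5%. In the HP library of index 3, 435 of 896 reads of miR-384-3p began 2 bases before the annotated start, against 1 of 41 with index 7 and 31 of 329 with index 11.

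**Figure D5:**
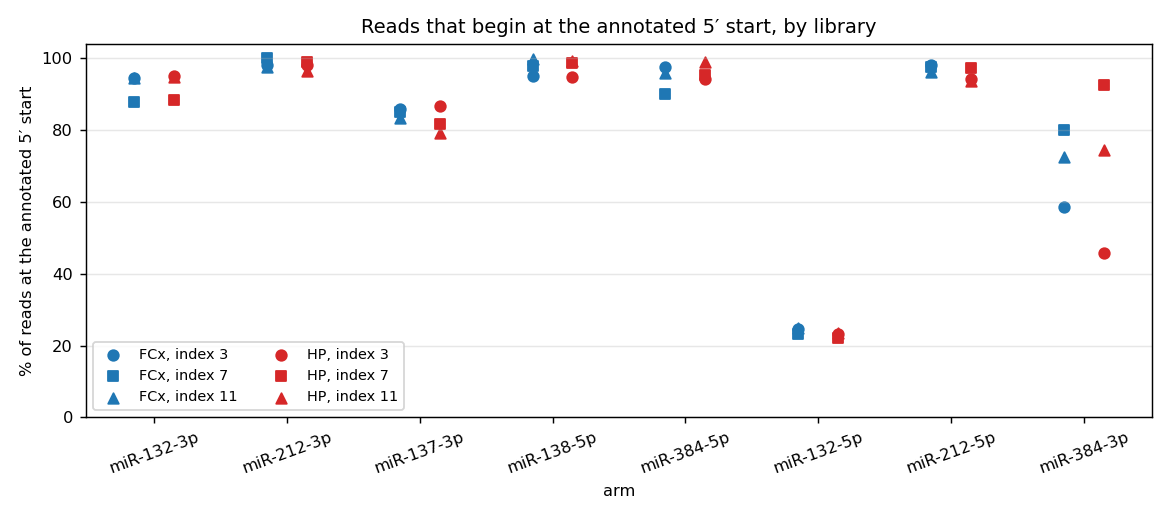
Percentage of the reads of each arm that begin at the annotated 5′ start, with 1 point per library (circle, index 3; square, index 7; triangle, index 11) in FCx (blue) and HP (red). The 5 listed arms lie above 79% in every library, miR-132-5p lies between 22.1% and 24.9% in all 6, and miR-384-3p spreads from 45.9% to 92.7%.

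Of the 5 listed miR-30 miRNAs, 2 followed miR-384-5p in the order of the indexes and 3 did not. miR-30a was at 7011, 6789 and 2963 CPM in FCx and 3621, 5080 and 1478 CPM in HP, and miR-30e at 404, 518 and 75.1 against 347, 555 and 97.7 CPM. miR-30d was at 3334, 6591 and 1527 CPM in FCx, and HP had 1562, 4465 and 722 CPM. In these 3, index 11 was the lowest, and in miR-384-5p index 7 was. miR-30c, with 1254, 147 and 369 CPM in FCx and 1411, 198 and 361 CPM in HP, had the order of miR-384-5p with a smaller range (8.53-fold and 7.14-fold). miR-30b had it as well, with 97.1, 12.3 and 26.1 CPM in FCx and 130, 23.4 and 39.5 CPM in HP. Like miR-384-5p, miR-30b was lower in FCx with every index and was called higher in HP with the block (log2 fold change -1.08 ± 0.32, edgeR adjusted p = 0.00689), but not with library totals (-0.63, adjusted p = 0.248). With the block, 12.8% of all 431 miRNAs were called higher in HP. The other 4 were not called with the block (edgeR adjusted p = 0.466 for miR-30a, 0.136 for miR-30c, 0.266 for miR-30d and 0.268 for miR-30e). With library totals miR-30a (log2 fold change 0.79, adjusted p = 0.0136) and miR-30d (0.91, adjusted p = 0.0051) were called higher in FCx, as were 8.35% of all 431.

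The miRNAs most like each of the 5 in pattern were found by Pearson's r of log2(CPM + 1) over the 6 libraries among the 138 others that averaged 100 CPM or more. As the libraries share 2 RNA pools and 3 indexes, r is a description. miR-30c was the most like miR-384-5p (r = 0.990), followed by miR-376b (0.982) and miR-23b (0.976). miR-365, with 409, 7.53 and 9.20 CPM in FCx, was the most like miR-137 (r = 0.992), before miR-30c (0.966) and miR-340-5p (0.964).

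For miR-132 they were miR-127* (r = 0.967), miR-344 (0.961) and miR-652 (0.945). miR-344, with 1699, 467 and 2488 CPM in FCx and 634, 348 and 1302 CPM in HP, was also the most like miR-212 (r = 0.894), before miR-154 (0.873) and miR-92b (0.873). miR-138 was closest to miR-323-3p (r = 0.887), miR-541 (0.877) and the neuronal miR-9 (0.859), each of which was highest with index 7 in HP. The seed mates miR-132 and miR-212 were not among the 3 closest miRNAs of each other.

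Other miRNAs with known roles at synapses or in neurons gave a setting for these values. Of 18 such miRNAs, all tested, 10 were changed by the index, against 61.3% of all 431 miRNAs. The list had a median range between indexes of 3.23-fold in FCx and 2.43-fold in HP over the 15 above 0 in every library, against 30.3-fold and 25.8-fold for the 5. With the block, edgeR called 6 of the 18 higher in HP and none higher in FCx, against 12.8% and 5.1% of all 431. With library totals it called 2 of the 18 each way, against 4.64% of all 431 higher in HP and 8.35% higher in FCx. The median log2 fold change was -0.38 with the block (-0.11 with library totals), against -0.38 (-0.01) over all 431 miRNAs and -0.74 (-0.31) over the 5.

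The highest values of the 18 were those of miR-128 (0.86 ± 0.35, edgeR adjusted p = 0.0631 with the block) and miR-124 (0.30 ± 0.32, adjusted p = 0.61), both neuronal miRNAs, and both were called higher in FCx with library totals (1.29 with adjusted p = 3.80e-15 and 0.72 with adjusted p = 0.00304). The lowest were miR-188-5p, which had no count in FCx and under 1 CPM in each HP library, and miR-218, with 388, 252 and 2606 CPM in FCx and 994, 714 and 5721 CPM in HP. miR-218, enriched in hippocampal and motor neurons, was lower in FCx with every index (-1.75 ± 0.30, edgeR adjusted p = 2.33e-07). The other 5 called higher in HP were miR-9 (-0.89 ± 0.32, adjusted p = 0.0348), miR-26a (-1.07 ± 0.31, adjusted p = 0.00595), the oligodendrocyte miRNA miR-219 (-1.09 ± 0.30, adjusted p = 0.00287), miR-191 (-1.16 ± 0.31, adjusted p = 0.00252) and miR-135a (-1.40 ± 0.45, adjusted p = 0.0139), by edgeR with the block. With library totals, only miR-218 (adjusted p = 3.68e-05) and miR-26a (0.0225) of these 6 were still called. Of the 6, miR-191 and miR-219 did not share 1 direction across the indexes. miR-191 was at 687, 183 and 475 CPM in FCx and 436, 1611 and 438 CPM in HP, so that by CPM it was lower in FCx with index 7 only, and miR-219 was higher in FCx with index 11 (507 against 383 CPM).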

How the data were processed

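By their methods, the authors sorted reads by index, trimmed index and 3′ adaptor, discarded homopolymers, reads shorter than 14 nt and those of adaptor dimers, ribosomal or mitochondrial RNA, and mapped what was left with Bowtie (version not given in the sources used here) to miRBase 11 and to NCBIM37, allowing 2 mismatches. The deposited values are raw counts per mature miRNA in 12 lane files, and the deposited genome alignments hold other values, start and end positions.

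The 2 runs of each library were summed. The 431 miRNAs with a sum of 2 or more counts in either region were tested with edgeR 4.0.16 in R 4.3.3 (quasi-likelihood test, TMM, Benjamini-Hochberg adjustment, threshold 0.05). Every adjusted p is from this test over all tested miRNAs or arms. SEs of log2 fold changes were derived from its test statistic. The exact test with a common dispersion used by the authors was run on the 12 lane files as an alternative, as was DESeq2 1.42.0.

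The index pairs the libraries: log2 CPM centred within each region correlated with r of 0.748, 0.841 and 0.829 between the regions for libraries that share an index, and from -0.58 to -0.24 between libraries of different indexes (431 miRNAs). After centring, the 3 values of a miRNA in a region sum to 0. Positive r for shared indexes therefore brings negative r between different indexes, which adds no separate evidence. The index was fitted as a block because of the r between libraries that share it. Ratios within an index have exact conditional intervals. Sequences are from RefSeq, placed on NCBIM37 by exact match. Python 3.11.15 with pandas 2.3.3, scipy 1.17.1 and pysam 0.24.0 gave the other values. The scripts were tested on simulated data.

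Values are named for the 5 miRNAs, their seed mates (with the miR-30 family) and other arms, the 3 closest in pattern to each, and, of the 18 other synaptic miRNAs, the 2 highest and 2 lowest log2 fold changes and those called. Members and lists were chosen with earlier results of these data known. The microarrays were not analysed here.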

Additional observations from a re-analysis of the deposited data

Results flagged for a closer look

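Other arms, outside the count tables, carried reads in the genome alignments. miR-132-5p had 16508 reads in the 6 libraries, miR-212-5p had 1884 and miR-137-5p had 122, where a count of 0 would allow 3. No group had the 4 samples needed to test for a library that stands apart.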

How the results depend on the processing

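The number of miRNAs called between FCx and HP (2 of 431 without a block) was 12 with DESeq2, 8 without a filter, 0 with the pooled runs only (18 at an unadjusted p under 0.05), 14 with the exact test on the 12 lane files, and 0 to 7 when 1 library was left out. The exact test on lane files takes the 2 runs of a library as separate replicates, which they are not. With the replicate block it was 77, and 56 with library totals, 41 with DESeq2, 68 with the individual runs, 46 with the pooled runs and 30 to 51 without 1 index. For a single one of the 5, the log2 fold change without a block ranged, when 1 library was left out, from -8.51 (FCx, index 3) to 6.01 (HP, index 3) for miR-137 and from -2.85 to 0.81 for miR-384-5p without the same libraries, since such a fit holds index 3 in 1 region only. With 1 library left out it ranged from 0.53 to 2.80 for miR-132, from 0.60 to 2.11 for miR-212 and from -1.05 to -0.17 for miR-138. In the blocked fits the direction of all 5 was the same in each of 8 settings, and miR-132 and miR-212 were called in 7 of them, miR-137 in 6, miR-384-5p in 3 and miR-138 in 0. The genome alignments, added after seeing the data, called all 5 with the block and none without it. Over all 415 arms the block called 5.54% higher in FCx and 11.1% higher in HP. Of the 5, miR-138-5p had no common direction across the indexes. The count of index calls stayed within 1.5 times of 264 under the alternatives. Of the 5 listed arms, 0 had shares of reads at the annotated start that separated FCx from HP, and 0 to 1 when 1 library was left out. The 2 RNA pools set the limit, since no difference between animals was measured, and FCx values of miR-384-5p rest on 11 to 126 counts.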
